A study of Mus musculus with 6 samples.

Results

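Nuclear pore complexes are the channels through which RNA and protein pass between nucleus and cytoplasm, and 31 genes that encode their subunits were examined in mouse fetal liver cells. The genes were taken from a named list of pore proteins and matched by symbol to the 54232 gene IDs in the deposited count tables. Of the 31 members, 30 passed the filter on low counts, which kept 16150 genes in all. Nup58, listed as Nupl1 in the annotation, had 0 counts in all 6 libraries and was not tested.

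Bulk RNA sequencing of total RNA gave 6 libraries in 2 groups of 3. Every library came from C57/B6 mouse fetal liver at E13.5, after purification of cells negative for Ter-119, a surface marker of maturing red cells. Day 0 cells had no treatment. The 30 h cells were grown in medium with EPO (erythropoietin, the hormone that drives red cell formation), received DMSO, a solvent, at 24 h, and were collected 6 h later. Culture, EPO, DMSO and time in culture therefore cannot be told apart in this comparison. Samples treated with Z-VAD-FMK were not analysed here. No source used here says whether replicates came from separate animals or cultures, so p-values measure the spread between these samples, which may be technical.

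The nuclear pore is a ring of repeated protein modules set into the nuclear envelope. The Y complex forms its outer rings, an inner ring lines the pore membrane, and membrane-spanning proteins anchor the whole. Proteins rich in phenylalanine-glycine repeats fill the channel, a basket projects into the nucleus, and filaments on the cytoplasmic side release exported mRNA. In erythroid cells, which later lose their nucleus, terminal maturation is known to involve nuclear condensation and a shrinking transcriptome.

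Library totals ranged from 19241780 to 29949173 counts. Levels are given as CPM, the counts scaled to a common library size with edgeR's TMM factors, and as RPKM, the same value per kilobase of exon, where genes are compared with each other. All values after ± are SD with n = 3. Erythroid markers were present at day 0, and their summed level went from 1364 to 1474 CPM at day 0 to between 51758 and 64078 CPM at 30 h, with 9 of 9 called higher. Markers of progenitors summed to 805 to 856 CPM at day 0 and 238 to 299 CPM at 30 h, with 5 of 5 called lower. The hepatoblast list summed to between 13100 and 14752 CPM at day 0 and between 772 and 2261 CPM at 30 h, with 9 of 9 lower. Endothelial markers summed to 172 to 199 CPM and then 30.4 to 38.4 CPM, with 7 of 7 lower, and mesenchymal markers to 1472 to 1879 CPM and then 23.8 to 56.5 CPM, with 6 of 7 lower. Lists for macrophages (3 higher and 2 lower of 7), granulocytes (2 higher and 3 lower of 6) and megakaryocytes (1 higher and 3 lower of 5) moved in both directions, and B-lymphoid markers were lower for 3 of 6. No marker on these lists was at 0 in every 30 h library, but some endothelial markers were near it. Stab2 had 0, 2 and 3 counts in the 30 h libraries and Emcn had 1, 0 and 2. Most of the endothelial sum at 30 h was Pecam1, at 29.4, 31.5 and 24.4 CPM. The part of these marker shifts in the pore gene results was not tested, and in bulk samples fewer cells of a type and less RNA per cell cannot be told apart.

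Most pore transcripts were lower at 30 h than at day 0, while a minority were higher. Among the 30 tested members, 6 rose with TMM scaling (Nup85, Seh1l, Sec13, Nup35, Tpr and Gle1), 17 fell and 7 did not pass the threshold of 0.05 (edgeR's quasi-likelihood F test, Benjamini-Hochberg adjustment over all genes tested). The largest rises were those of Tpr, a basket filament protein, and Sec13, a Y complex subunit, and the largest fall was that of Nup214, a cytoplasmic filament protein. Calls were common among all genes: 74.5% of those tested passed, 34.4% as higher and 40.1% as lower. Against that background, 23 of 30 members called is close to the share for all genes. With TMM scaling, the groups of libraries did not overlap for 24 of 30 members, against 79.7% of all genes tested. The members' median log2 change was -0.50, and that of all genes was -0.09. The size of a change, in either direction, had a median of 0.57 log2 units over the members and 0.99 over all genes. With scaling by library totals alone, the median of all genes shifted to -0.58 and that of the members to -0.99, with 1 member higher (Sec13) and 20 lower. That scaling moved the share of calls that were higher, over all genes, from 46.1% to 29.1%. A change of library scaling shifts all genes by nearly the same log2 amount, so it cannot test the members against all genes. The distance between the members' median and the median of all genes was therefore -0.41 under both scalings. With the trend of change with transcript length removed it was -0.18, and without 30 h replicate 3 it was -0.33.

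**Figure D1:**
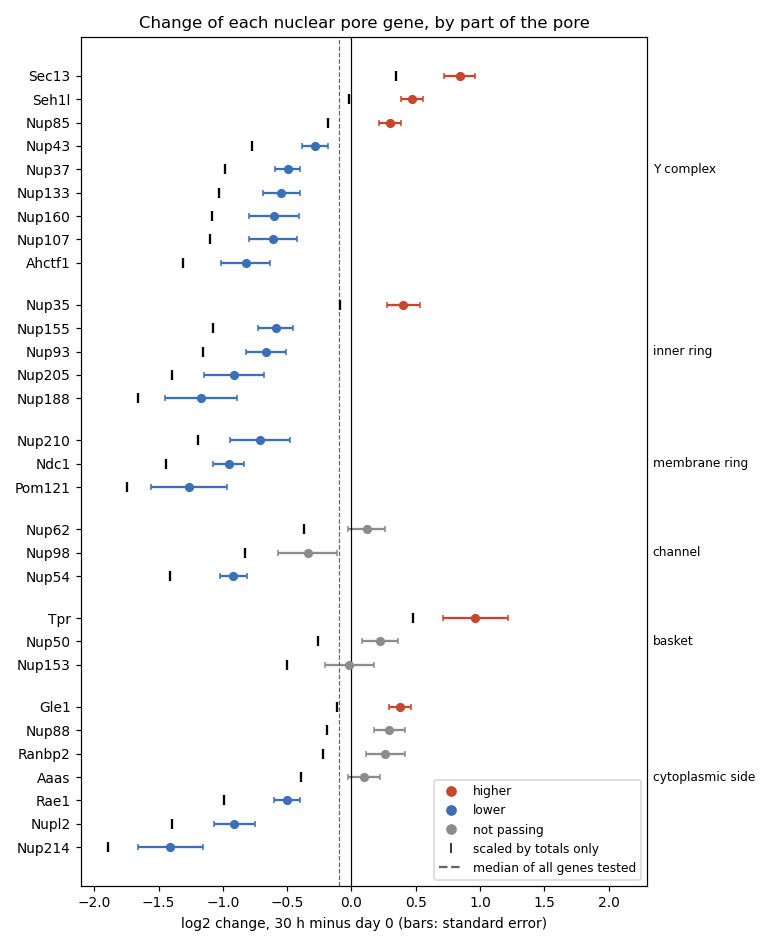
Log2 change of each of the 30 tested pore genes between day 0 and 30 h, with bars of 1 standard error, grouped by part of the pore; black ticks give the change with scaling by library totals only and the dashed line the median of all genes tested (-0.09). All 3 membrane ring genes lie below zero, while every other part except the channel has a gene called higher with TMM scaling.

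A stricter test, against a change of 1.5-fold, was passed by Sec13 alone among the higher members and by 6 lower members, against 23.6% of all genes higher and 30.2% lower. The 6 were Nup188, Ndc1, Pom121, Nup54, Nup214 and Nupl2. As a raw share of all counts in a library, the 31 genes took 0.514 ± 0.0134% at day 0 and 0.323 ± 0.0561% at 30 h. In the single libraries these shares were 0.505%, 0.508% and 0.530% at day 0 and 0.369%, 0.339% and 0.260% at 30 h, so the groups did not overlap.

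Promoter windows are shown for 4 genes that carry the range of the changes, Sec13 and Tpr among those that rose and Nup214 and Ndc1 among those that fell; they were picked after the values were seen. Each is the 300-base RefSeq window on GRCm38.p6 from 250 bases before the start in RefSeq to 50 after it, 5′ to 3′ on the gene's strand. The windows lie at chr6:113740632-113740931 (minus strand) for Sec13, chr1:150392588-150392887 (plus) for Tpr, chr2:31974200-31974499 (plus) for Nup214 and chr4:107367797-107368096 (plus) for Ndc1. The RefSeq start is also the gene start in GENCODE M21 for Tpr, and lies 62 bases downstream of it for Sec13, 14 for Nup214 and 263 for Ndc1, whose window therefore falls wholly within the GENCODE gene. Capitals mark every match, on either strand, to CCGGAA (the core bound by ETS factors), CCAAT (bound by NF-Y), GGGCGG (a GC box bound by Sp factors), CACCC (bound by KLF factors), CACGTG (an E-box), AGATAA (bound by GATA factors) or TGCGCA (part of the site of NRF1).
Sec13: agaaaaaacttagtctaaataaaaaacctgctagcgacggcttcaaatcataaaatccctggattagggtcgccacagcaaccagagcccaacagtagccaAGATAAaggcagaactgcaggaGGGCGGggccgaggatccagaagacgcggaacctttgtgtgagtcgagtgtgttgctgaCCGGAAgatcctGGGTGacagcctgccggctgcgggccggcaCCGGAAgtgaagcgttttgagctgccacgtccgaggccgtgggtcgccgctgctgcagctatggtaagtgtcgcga
Tpr: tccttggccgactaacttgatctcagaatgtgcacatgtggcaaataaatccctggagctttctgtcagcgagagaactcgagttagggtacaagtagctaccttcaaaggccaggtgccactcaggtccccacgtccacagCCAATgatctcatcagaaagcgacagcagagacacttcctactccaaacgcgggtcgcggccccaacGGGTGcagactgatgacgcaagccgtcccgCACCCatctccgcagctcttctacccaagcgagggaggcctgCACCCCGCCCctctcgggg
Nup214: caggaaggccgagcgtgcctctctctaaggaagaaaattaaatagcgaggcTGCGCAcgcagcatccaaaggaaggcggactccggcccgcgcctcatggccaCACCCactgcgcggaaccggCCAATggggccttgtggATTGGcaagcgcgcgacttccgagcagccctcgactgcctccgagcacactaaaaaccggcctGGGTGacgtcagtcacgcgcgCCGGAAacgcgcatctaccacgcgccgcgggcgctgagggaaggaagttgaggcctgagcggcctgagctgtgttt
Ndc1: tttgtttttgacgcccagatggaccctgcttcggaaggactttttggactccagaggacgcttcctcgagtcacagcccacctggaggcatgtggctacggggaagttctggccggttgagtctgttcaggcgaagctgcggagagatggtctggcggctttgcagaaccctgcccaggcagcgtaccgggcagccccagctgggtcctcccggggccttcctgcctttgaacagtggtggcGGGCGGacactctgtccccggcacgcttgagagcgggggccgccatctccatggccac
The Sec13 window held 2 matches to the ETS core, 1 GC box, 1 GGGTG (the reverse complement of CACCC) and 1 AGATAA. In the Tpr window, 1 CCAAT, 3 matches to CACCC or GGGTG and 1 GC box were found, the GC box overlapping a CACCC match. Nup214 had 1 ETS core, CCAAT on both strands, CACCC on both strands and 1 TGCGCA, and Ndc1 had a single GC box. Over the whole family, 27 of the 31 genes matched at least 1 window and 30 windows were found in all. Their median GC content was 63.7%, against 52.7% for all 32851 windows, and their median number of CpG dinucleotides 27.5, against 7. The ETS core was in 33.3% of member windows and 14.9% of all windows. GC boxes were in 63.3% and 35.7%. E-boxes and TGCGCA were each in 4 of 30 member windows (13.3%), against 7.15% and 7.76% of all windows. CCAAT (40% and 37.4%) and CACCC (56.7% and 57.5%) were about as frequent in both. AGATAA was in 1 member window, that of Sec13 (3.33%), and in 11.2% of all windows. Of the windows of genes that fell, 7 of 18 held the ETS core, as did 2 of 3 of genes that rose and 1 of 8 of genes that did not pass. Among genes that rose, only Gle1, Sec13 and Tpr had a window, and Nup85, Seh1l and Nup35 had none. Nup37, Nup93 and Nup98 had 2 windows each, and both of Nup37 held the ETS core. A match describes the letters in the window and does not show binding.

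The Y complex, whose 9 genes encode the scaffold of the outer rings, split into 3 genes that rose and 6 that fell. Sec13, which also serves in the COPII coat of secretory vesicles (gene at chr6:113728062-113740743, mm10), had 195, 178 and 193 CPM in the day 0 libraries and 309, 314 and 392 CPM at 30 h. Every 30 h library was above every day 0 library. Its level rose 1.79-fold (log2 change 0.84, SE 0.12, edgeR adjusted p = 0.000347), and it was also called higher with scaling by totals only (log2 change 0.35, edgeR adjusted p = 0.0198). Seh1l, a partner of Sec13 in the lysosomal GATOR complex as well as in the pore, had 176, 172 and 176 CPM at day 0 and 251, 239 and 239 CPM at 30 h. It rose 1.39-fold with TMM scaling (edgeR adjusted p = 0.00118), but its log2 change was -0.015 with totals only and 0.0097 once the trend of change with GC content was removed. Nup85, which binds Seh1l in the short arm of the Y, had 209 ± 6.23 CPM and 258 ± 3.42 CPM, 1.23-fold higher (edgeR adjusted p = 0.0117) with TMM scaling, and had a log2 change of -0.19 with totals only. With TMM scaling the 3 genes that rose thus did not overlap between groups, but for Seh1l and Nup85 the direction, and with it this separation, rested on the scaling.

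The 6 other Y complex genes fell. Nup107, Nup133 and Nup160, which build the stem and long arm, fell 1.53-fold, 1.46-fold and 1.52-fold (edgeR adjusted p = 0.0170, 0.00954 and 0.0214). Nup107 had 149, 138 and 145 CPM at day 0 and 117, 98.4 and 67.2 CPM at 30 h. Nup160 had 160, 159 and 170 CPM and then 133, 113 and 75.1 CPM. The 3 day 0 libraries lay close together, the 30 h libraries were spread out, and replicate 3 was the lowest of them. Leaving out day 0 replicate 3 raised the adjusted p of Nup160 to 0.0606 (edgeR). Ahctf1 (ELYS), the DNA-binding protein that seeds new pores on chromatin after mitosis, fell furthest in this part, from 211 ± 10.2 CPM to 119 ± 32.4 CPM, 1.77-fold (edgeR adjusted p = 0.00447). The small subunits Nup37 and Nup43 fell 1.41-fold and 1.22-fold (edgeR adjusted p = 0.00177 and 0.0341). Nup43 was at 71.8, 69.4 and 74.1 CPM at day 0 and 55.4, 56.5 and 65.2 CPM at 30 h. That gap was narrow, and the call for Nup43 was lost in 9 of 19 alternative analyses.

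**Figure D2:**
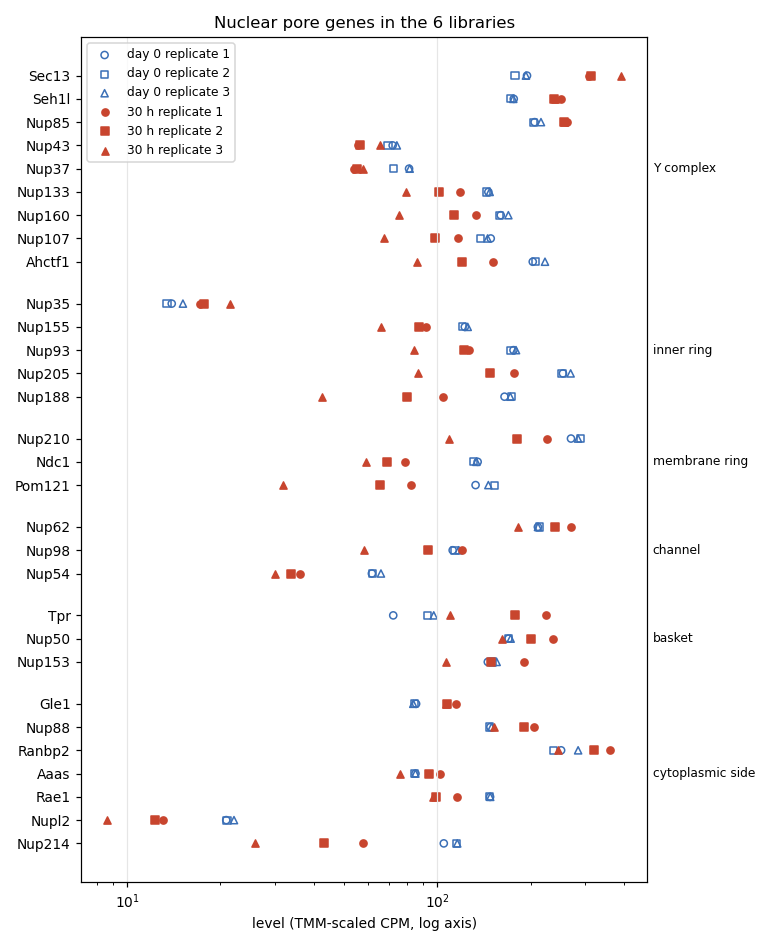
Level of each tested pore gene in every library, as TMM-scaled CPM on a log axis, with open symbols for day 0, filled symbols for 30 h and shapes for replicate number. The day 0 libraries lie close together for most genes, and 30 h replicate 3 is the lowest of the 30 h libraries for 25 of 30 genes.

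Of the 5 inner ring genes, whose proteins form the core around the central channel, 4 fell and 1 rose. Nup188, one of the large scaffold proteins (chr2:30286397-30344266, mm10), had 165, 174 and 172 CPM at day 0 and 104, 79.6 and 42.4 CPM at 30 h. The groups were far apart, although the 30 h libraries differed more among themselves than the day 0 libraries did. It fell 2.25-fold (log2 change -1.17, SE 0.28, edgeR adjusted p = 0.00549). Its relative Nup205 fell 1.88-fold, from 259 ± 9.17 CPM to 137 ± 46.2 CPM (edgeR adjusted p = 0.00754). Nup93, which ties the inner ring to the channel proteins, fell 1.59-fold (edgeR adjusted p = 0.00510), and Nup155, which contacts the membrane, fell 1.504-fold (edgeR adjusted p = 0.00443). Nup35, a small membrane-binding linker, was the least abundant pore gene tested at day 0, with 13.9, 13.4 and 15.1 CPM there and 17.2, 17.8 and 21.4 CPM at 30 h. It rose 1.32-fold with TMM scaling (edgeR adjusted p = 0.0184), but its log2 change was -0.088 with totals only and -0.076 after removal of the GC trend.

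All 3 membrane ring genes fell. Ndc1, which spans the membrane and is needed to insert new pores (chr4:107367784-107416346, mm10), had 135, 131 and 134 CPM at day 0 and 78.6, 68.7 and 58.9 CPM at 30 h. The groups were widely separated. Ndc1 fell 1.94-fold (log2 change -0.95, SE 0.12, edgeR adjusted p = 0.000181). Pom121, a transmembrane protein that recruits the scaffold (chr5:135376141-135394546, mm10), had 133, 153 and 146 CPM and then 82.1, 65.5 and 31.9 CPM. It fell 2.40-fold (log2 change -1.26, SE 0.30, edgeR adjusted p = 0.00508). Of the exonic bases of Pom121, 11.9% are also exons of Nsun5 on the opposite strand, and the labels do not state a strand setting for the counting. Nup210, a glycoprotein of the pore lumen whose level differs between cell types, fell 1.64-fold, from 281 ± 10.3 CPM to 172 ± 59.0 CPM (edgeR adjusted p = 0.0236). Its call was lost in 5 of 19 alternatives.

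The channel genes did not move together. Nup54, which forms the central channel with Nup62 and Nup58 (chr5:92415540-92435219, mm10), had 61.6, 61.8 and 65.9 CPM at day 0 and 36.1, 33.7 and 30.0 CPM at 30 h, with little spread in either group. It fell 1.89-fold (log2 change -0.92, SE 0.11, edgeR adjusted p = 9.48e-05). Its partner Nup62 had 211, 213 and 211 CPM at day 0 and 269, 239 and 182 CPM at 30 h. These groups overlapped, because 30 h replicate 3 lay below the day 0 libraries and replicates 1 and 2 above them, and Nup62 did not pass (log2 change 0.12, SE 0.14, edgeR adjusted p = 0.468). Nup98, whose precursor protein is cut to give the channel protein Nup98 and the Y complex subunit Nup96, had 112, 114 and 117 CPM and then 120, 93.3 and 58.1 CPM, and did not pass either (log2 change -0.34, SE 0.23, edgeR adjusted p = 0.211).

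For Nup58 a count of 0 allows at most 0.0848 to 0.189 CPM per library, taking 3 counts as the limit, which covers counting error only. Of its exonic bases, 48.8% are also exons of Gm49336, a gene on the same strand at chr14:60205282-60251507 (mm10). Gm49336 had 75.9, 71.1 and 75.2 CPM at day 0 and 112, 117 and 118 CPM at 30 h, 1.56-fold higher (edgeR adjusted p = 0.00027). The part of this overlap, or of the counting settings, in the 0 counts of Nup58 was not tested, and no level is given for it.

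Basket genes were the part with a median change above that of all genes under each setting tried, although only 1 of the 3 passed. Tpr, the long coiled-coil protein that makes the basket filaments (chr1:150392838-150449935, mm10), had 72.1, 93.2 and 97.4 CPM at day 0 and 225, 178 and 110 CPM at 30 h. Both groups were spread out, and with TMM scaling the lowest 30 h library was only a little above the highest day 0 library. It rose 1.95-fold with TMM scaling (log2 change 0.96, SE 0.25, edgeR adjusted p = 0.00812), and with totals only the log2 change was 0.48 (edgeR adjusted p = 0.123). With the GC trend removed and a replicate block it was 0.66 (edgeR adjusted p = 0.0624). Nup153, to which Tpr is anchored, had 146, 151 and 155 CPM and then 190, 149 and 107 CPM, a log2 change of -0.02 (SE 0.19, edgeR adjusted p = 0.946). With totals only its log2 change was -0.50, and it was called lower (edgeR adjusted p = 0.0484). Nup50, a mobile protein that binds Nup153 and importin alpha, had 170, 170 and 172 CPM and then 237, 200 and 162 CPM (log2 change 0.23, SE 0.14, edgeR adjusted p = 0.177). In both, 30 h replicate 1 lay above the day 0 libraries and replicate 3 below them.

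On the cytoplasmic side 3 of 7 genes fell, 1 rose and 3 did not pass. Nup214, a docking site for export receptors (chr2:31974436-32053975, mm10), had 105, 116 and 116 CPM at day 0 and 57.6, 43.3 and 25.8 CPM at 30 h. No 30 h library came near the day 0 range. It fell 2.65-fold (log2 change -1.41, SE 0.25, edgeR adjusted p = 0.00126). Nup88, the protein that holds Nup214 in place, had 148, 147 and 150 CPM and then 205, 190 and 152 CPM. Its groups did not overlap, yet it did not pass (log2 change 0.30, SE 0.12, edgeR adjusted p = 0.0577), whereas DESeq2's Wald test called it higher (adjusted p = 0.00327). Ranbp2 (Nup358), the SUMO ligase of the cytoplasmic filaments, had 251, 237 and 285 CPM and then 360, 321 and 246 CPM, with overlap (log2 change 0.26, SE 0.15, edgeR adjusted p = 0.152).

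Gle1 and Nupl2, which act together in releasing mRNA from the cytoplasmic face, went opposite ways. Gle1, the activator of the export helicase, had 85.5, 84.6 and 83.7 CPM at day 0 and 115, 108 and 107 CPM at 30 h. It rose 1.30-fold with TMM scaling (edgeR adjusted p = 0.00449), against a log2 change of -0.11 with totals only. Nupl2, which binds Gle1, had 20.9, 21.01 and 22.1 CPM and then 13.1, 12.3 and 8.63 CPM, a fall of 1.88-fold (edgeR adjusted p = 0.00111). Neither gene overlapped between groups with TMM scaling. Rae1, an mRNA export factor bound to Nup98, fell 1.42-fold, from 148 ± 0.592 CPM to 104 ± 10.4 CPM (edgeR adjusted p = 0.00220). Aaas (ALADIN), which Ndc1 anchors at the pore, had 85.1, 84.5 and 85.04 CPM and then 102, 94.1 and 76.0 CPM, with overlap and no call (log2 change 0.10, SE 0.12, edgeR adjusted p = 0.492).

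Levels per length show how the family's transcripts were apportioned. The summed RPKM of the tested members was 823 ± 15.1 at day 0 and 770 ± 85.9 at 30 h. The Y complex took 37.1 ± 0.708% of it at day 0 and 44.5 ± 5.09% at 30 h. By library the Y complex share at 30 h was 40.5%, 42.9% and 50.2%, all above the day 0 libraries. Sec13 by itself went from 7.20% to 13.8% of the summed level. Without Sec13 in either sum, the Y complex share was 32.3 ± 0.547% and then 35.5 ± 3.33%. The inner ring share went from 13.48 ± 0.0705% to 8.41 ± 1.22% and the membrane ring share from 9.69 ± 0.330% to 5.26 ± 1.03%, both without overlap between groups. The basket share went from 7.86 ± 0.208% to 10.1 ± 1.37%, also without overlap. Channel genes (12.4 ± 0.174% and 12.6 ± 1.11%) and cytoplasmic genes (19.4 ± 0.0252% and 19.1 ± 0.3996%) overlapped between groups. Without division by length, however, the cytoplasmic share was 19.7 ± 0.212% and then 22.2 ± 0.216%, with no overlap. Such shares are computed within a library, so library scaling does not enter them.

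**Figure D3:**
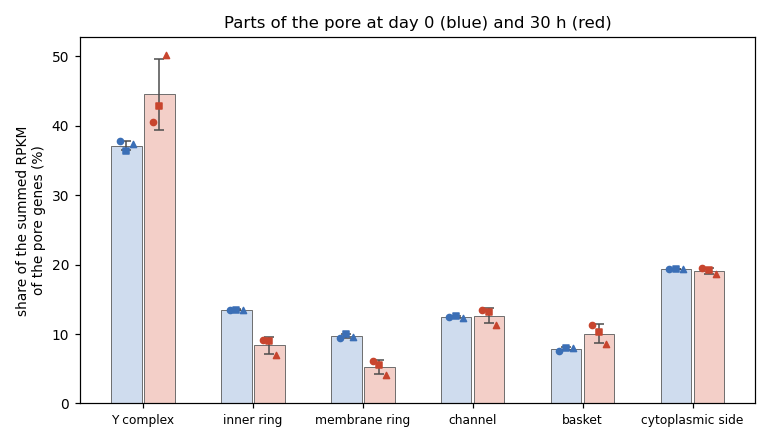
Share of the summed per-length level (RPKM) of the tested pore genes held by each part of the pore, in percent, with bars at the mean of 3 libraries, error bars of 1 SD and a point per library. The membrane ring share goes from 9.69% to 5.26% and the inner ring share from 13.48% to 8.41%, while the Y complex share goes from 37.1% to 44.5%. Without Sec13 in either sum (not drawn), the Y complex share goes from 32.3% to 35.5%.

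The range of levels among pore genes was wider at 30 h. At day 0 the highest per-length level was that of Nup62 (74.3 RPKM) and the lowest among tested genes that of Nup35 (4.21 RPKM), 17.6-fold apart. At 30 h the highest was Sec13 (106 RPKM) and the lowest Nupl2 (3.01 RPKM), 35.4-fold apart. Within the Y complex the highest and lowest levels were 4.42-fold apart at day 0 (Nup85 and Ahctf1) and 13.48-fold apart at 30 h (Sec13 and Ahctf1). The 3 membrane ring genes lay within 1.05-fold of each other at day 0 and 1.53-fold at 30 h. In the inner ring the range was narrower at 30 h, with Nup93 above Nup35 by 9.83-fold at day 0 and 4.67-fold at 30 h. The basket range was narrower as well, with Nup50 above Tpr by 4.18-fold and then 2.50-fold. Ranges in the channel (8.17-fold and then 11.2-fold) and on the cytoplasmic side (10.2-fold and then 13.6-fold) were wider at 30 h.

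Ratios between direct partners were taken within each library, where scaling cancels, for 11 pairs chosen after the values were seen. Differences between libraries that vary from gene to gene, such as those of 30 h replicate 3, do not cancel. The ratios are given as a description. Nup214 per Nup88 was 0.596, 0.662 and 0.654 (RPKM over RPKM) at day 0 and 0.237, 0.192 and 0.143 at 30 h. Nup54 per Nup62 was 0.250, 0.248 and 0.267 and then 0.115, 0.121 and 0.141. In both pairs every 30 h ratio was far below every day 0 ratio. Tpr per Nup153 had a mean ratio of 0.388 ± 0.0490 at day 0 and 0.757 ± 0.0618 at 30 h. Aaas per Ndc1 went from 1.12 ± 0.0132 to 2.32 ± 0.0780, and Gle1 per Nupl2 from 2.46 ± 0.101 to 6.18 ± 1.30. Partners in the arms and stem of the Y differed in this respect. Nup160 per Nup85 went from 0.301 ± 0.00200 to 0.160 ± 0.0427, whereas Nup133 per Nup107 overlapped between groups (0.555 ± 0.0161 and 0.590 ± 0.0503). Rae1 per Nup98 overlapped as well, and the other 9 of 11 pairs did not. Of all genes tested, taken singly, 79.7% did not overlap between groups, and no share was computed for pairs of other genes. The count of pairs is therefore not read as particular to pore partners.

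Replicate 3 at 30 h stood apart for the pore genes. It was the lowest 30 h library for 25 of 30 members and the highest for 4. Its log2 level minus the mean of replicates 1 and 2 had a median of -0.47 over the members, from -1.20 for Pom121 to 0.33 for Sec13, and a median of -0.04 over all genes. Over the 30 members this difference had a Spearman rho of -0.70 with the length of the longest annotated transcript, and over 16144 genes of all kinds a rho of -0.45. The points share the same libraries, and genes are not independent replicates. The 15 longer members had a median of -0.71 and the 15 shorter ones -0.14. The log2 change between groups had a rho of -0.24 with length over the members and -0.21 over all genes. Median transcript length was 3115 bases for members that rose and 5580 bases for those that fell, against 4307 bases for all 30 tested members and 3168 bases for 16144 genes of all kinds. The coefficient of variation of a member had a median of 3.23% at day 0 and 18.997% at 30 h. Without 30 h replicate 3, 11 members were called higher and 17 lower, the added calls being Nup62, Nup50, Nup88, Ranbp2 and Aaas, and the median log2 change was -0.40. Over all genes, 47.1% of the calls in that fit were higher. Fits with a library left out called 11017 to 13241 of all genes, against 12036 with all libraries. The added calls are therefore not read as particular to pore genes. The part of transcript length or RNA quality in these differences was not tested.

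**Figure D4:**
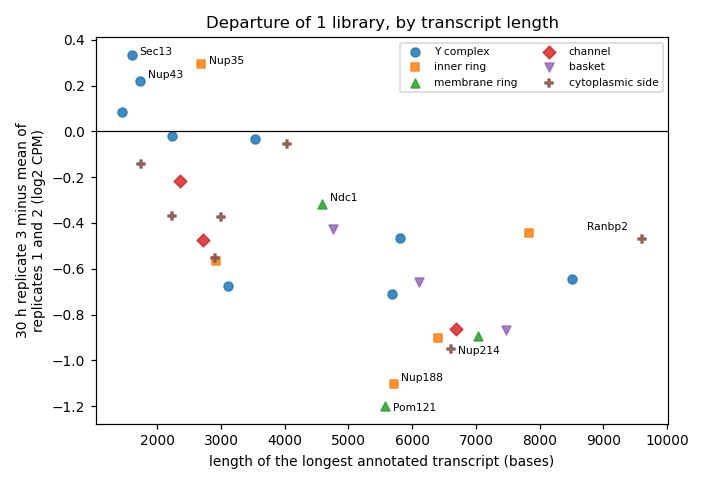
Level in 30 h replicate 3 minus the mean of 30 h replicates 1 and 2 (log2 CPM) against the length of the longest annotated transcript (bases), with a point for each of the 30 tested pore genes, shaped by part of the pore. Longer transcripts lie lower, with a Spearman rho of -0.70 over the 30 genes.

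Genes that work with the pore were read from companion lists, beside the values for all genes. Over all genes tested, 74.5% were called with TMM scaling, 34.4% as higher and 40.1% as lower, with a median log2 change of -0.09. With scaling by library totals alone, 29.1% of the calls over all genes were higher, and the median of all genes was -0.58. Of 28 nuclear transport receptors and Ran cycle genes, 3 rose, 14 fell and 11 did not pass, with a median log2 change of -0.37. With totals only, 0 of them were higher and 19 lower. Ran, the GTPase that gives transport its direction, had 601 ± 22.2 CPM at day 0 and 908 ± 153 CPM at 30 h, 1.51-fold higher with TMM scaling (edgeR adjusted p = 0.00349) and with a log2 change of 0.10 with totals only. Xpo5, the exporter of precursor microRNAs, fell 4.24-fold, from 173 ± 4.76 CPM to 40.8 ± 15.3 CPM (edgeR adjusted p = 0.000181). Kpnb1 (importin beta), the main import receptor, fell 2.04-fold (edgeR adjusted p = 0.00507). The mRNA export list of 14 genes had 5 that rose, 3 that fell and 6 that did not pass, with a median of 0.09, and with totals only 5 that were higher and 8 lower. Cetn3, a centrin that has a close relative in the TREX-2 export complex, rose 2.96-fold (edgeR adjusted p = 0.000129), and the export helicase gene Ddx39b fell 2.47-fold (edgeR adjusted p = 4e-05).

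Of 12 pore-associated proteins, 7 rose, 1 fell and 4 did not pass, with a median of 0.36. With totals only, 3 were higher and 5 lower, and the median was -0.13. Mad2l1, the checkpoint protein that docks at the basket between divisions, had 154 ± 4.84 CPM and then 415 ± 67.5 CPM, 2.71-fold higher (edgeR adjusted p = 3.01e-05). The fall was that of Zc3hc1, a basket-bound protein, from 89.4 ± 1.78 CPM to 69.7 ± 2.48 CPM (edgeR adjusted p = 0.00588). Paralogues of pore genes were scarce: Nup210l had 0.244 ± 0.0530 CPM at day 0 and 1.11 ± 0.5004 CPM at 30 h (4.60-fold higher, edgeR adjusted p = 0.00159), Nup62cl did not pass, and Pom121l2 was not tested.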

How the data were processed

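The deposited files hold raw gene counts, made by the authors, 1 file per library. Build mm10, the aligner STAR, the counter HTSeq 0.6.1p1, the trimmer cutadapt 1.13 and DESeq2 are listed in the submitters' processing notes, with no settings; a strand setting is not stated. Total RNA was column-purified, per the labels' protocols. Symbols, positions and exon lengths came from GENCODE M21, on the same assembly (54165 of 54232 IDs matched). Members and companion lists (nuclear transport, mRNA export, pore-associated proteins, paralogues and cell type markers) were chosen with earlier results of these data known.

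The test was edgeR 4.0.16's quasi-likelihood F test (R 4.3.3) with filterByExpr defaults, TMM scaling (factors 1.18, 1.18 and 1.19 at day 0, 0.840, 0.873 and 0.820 at 30 h), robust dispersion and Benjamini-Hochberg adjustment over 16150 genes. The 19 alternatives covered library scaling, low-count filters, DESeq2 1.42.0, limma-trend (limma 3.58.1), a 1.5-fold threshold, a replicate block, GC and length trends, and each library left out. Counts of tested members ranged from 137 to 10042 per library. Replicates differed beyond sampling noise, so none was a copy of another. Whether any were separate preparations of the same RNA cannot be told from this. RPKM used the union of annotated exons, so a gene expressed as a short isoform is understated. Short-read counts of long transcripts depend on RNA integrity and on library preparation. All members are named. In each companion list the largest rise and fall were named, and Kpnb1 was added after values were seen. No genome or protein table was used.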

Additional observations from a re-analysis of the deposited data

How the results depend on the processing

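Across 19 alternatives, Sec13 (higher) and Nup188, Ndc1, Pom121, Nup54, Nup214 and Nupl2 (lower) kept their call and direction. They are the same genes that passed the test against 1.5-fold, which is among the 19 and asks a stricter question. Nup107, Nup133, Nup37, Ahctf1, Nup93, Nup155, Nup205 and Rae1 kept their call as lower in 18 and lost it only in that test. With library totals only, 1 member was higher and the members' median was -0.99, and Nup153 (-0.50) was called lower; log2 changes turned negative for Nup85 (-0.19), Seh1l (-0.015), Nup35 (-0.088), Nup62 (-0.37), Nup50 (-0.26), Nup88 (-0.19), Ranbp2 (-0.22), Gle1 (-0.11) and Aaas (-0.39). Upper quartile scaling gave -0.028 for Nup62 and -0.048 for Aaas. Without a filter on low counts 3 members were higher, the calls of Nup85, Nup35 and Gle1 being lost, and the test against 1.5-fold left 1 higher and 6 lower.

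Nup153, at -0.02 in the main analysis, was also negative with upper quartile scaling and with the GC trend removed, and was at 0.026 with DESeq2 size factors and with the DESeq2 Wald test, 0.0054 with a filter of at least 1 CPM, 0.13 with the length trend removed and 0.18 without 30 h replicate 3. Removing the trend with GC gave -0.076 for Nup35 and -0.29 for Ranbp2. Removing the trend with length, added after seeing the data, left 7 higher and 17 lower, with Aaas at -0.066. Leaving out each library in turn gave 4 to 11 members higher, 14 to 17 lower, a members' median from -0.55 to -0.40, and 11017 to 13241 genes called of all tested, with Nup153 from -0.18 to 0.18. Without day 0 replicate 1 or 2, the calls of Nup85 (edgeR adjusted p = 0.0768 and 0.0731) and Nup35 (0.0788 and 0.0889) were lost. Nup210 was lost without day 0 replicate 2 or 3 or 30 h replicate 2 (edgeR adjusted p = 0.0627, 0.0568 and 0.0552), Nup160 without day 0 replicate 3 (0.0606), and Nup43 without any library but 30 h replicate 3 (0.0641 to 0.209). Nup98 was called lower without 30 h replicate 1 (edgeR adjusted p = 0.0170), and also with totals only (0.0140) and upper quartile scaling (0.0424). Beyond the differences in samples or genes that some alternatives are built on, the cause was not tested.

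Replicate numbers did not pair the samples: deviations of same-numbered libraries correlated at -0.11, 0.10 and -0.029. With a replicate block, 6 members were higher and 16 lower, Nup43 being lost (edgeR adjusted p = 0.0604). With the block and the GC trend removed, Nup35 was at -0.077 and Ranbp2 at -0.31, with 4 members higher and 17 lower, the calls of Tpr (edgeR adjusted p = 0.0624) and Seh1l (0.950) being lost and that of Nup62 as higher (0.0218) gained.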
